A study of Homo sapiens with 6 samples.

Results

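The genes described here were 44 interferon-stimulated genes, taken by symbol from a list of textbook members and matched to the NCBI gene identifiers of the count files. All 44 symbols were found among 40895 genes. The cells were A375SM, a metastatic derivative of the human A375 melanoma line with the labelled genotype WT. In 3 libraries they were transduced with a short hairpin RNA against PRAME (shPRAME), and in 3 with a control hairpin (shCtrl). Both groups thus carried a hairpin vector, no untransduced cells were among the samples, and no interferon treatment is given in the labels. A fall or rise below is therefore that of shPRAME relative to shCtrl. Which of the groups differs from untransduced cells cannot be told. PRAME is a cancer-testis antigen that serves as a substrate receptor of a CUL2 ubiquitin ligase. The labels do not state how many hairpins or separate transductions were used, so p-values reflect only the scatter among the 6 libraries, some of which may be technical.

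Interferons are secreted proteins that cells make on sensing foreign nucleic acid. Type I interferons bind the receptor pair IFNAR1 and IFNAR2, the kinases JAK1 and TYK2 then activate transcription factors, STAT2 and IRF9 among them, in a complex that binds a promoter element, the interferon-stimulated response element (ISRE). Interferon gamma acts through another receptor pair and another promoter element, the gamma-activated site (GAS). The induced genes encode proteins that bind or cut viral RNA, block viral entry and release, or tag other proteins. Many tumour lines keep a part of this programme switched on without added interferon.

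Libraries held from 30842788 to 33854545 counts in shPRAME and from 31525186 to 34107332 in shCtrl, and all carried the same batch label. PRAME itself had 57.7, 57.8 and 53.8 CPM in shPRAME against 166.3, 163.8 and 164.8 in shCtrl, where CPM are counts scaled to a common library size with TMM factors. Of 8 melanocyte markers 3 were tested. S100B fell to 28.2 CPM in shPRAME against 54.0 CPM in shCtrl and MITF to 37.6 CPM in shPRAME against 44.6 CPM in shCtrl, and SOX10, at 275.3 CPM in shPRAME and 265.6 CPM in shCtrl, did not pass. S100B lies on chromosome 21, where its neighbouring genes had a median log2 fold change (shPRAME over shCtrl) of -0.79, against -0.94 for S100B. TYR had no count, and MLANA, PMEL, TYRP1 and DCT lay below 0.3 CPM in both groups. The pigment genes of the lineage were thus at or near 0. Nuclear ribosomal RNA took 2.06% to 3.14% of counts in shPRAME and 4.61% to 4.99% in shCtrl, and mitochondrial mRNA took 4.57% to 4.69% in shPRAME and 3.82% to 4.05% in shCtrl. Of 9 leukocyte markers 5 had no count in any library, CD3E, MS4A1, TYROBP and NKG7 among them, and the summed level of the 9, nearly all of it CD68, was 72.3 to 74.3 CPM in shPRAME and 43.0 to 45.4 CPM in shCtrl. All 3 tested leukocyte markers, CD68, LYZ and PTPRC, were higher in shPRAME, as were 37.7% of all tested genes. LYZ had 1.31 CPM in shPRAME and 0.0706 CPM in shCtrl, and PTPRC reached 0.925 CPM in shPRAME and had no count in shCtrl. Markers of plasmacytoid dendritic cells, the main interferon producers of blood, summed to at most 0.116 CPM in shPRAME and 0.0971 CPM in shCtrl, with CLEC4C and LILRA4 at 0. Of 8 fibroblast markers 7 were tested, 5 rose and 2 fell. COL1A2 had 21.6 CPM in shPRAME and no count in shCtrl, LUM had 9.88 CPM in shPRAME and 0.0102 CPM in shCtrl, and COL3A1, PDGFRA and COL1A1 were also higher. PDGFRB fell to 17.4 CPM in shPRAME against 64.3 CPM in shCtrl and FAP to 27.0 CPM in shPRAME against 46.1 CPM in shCtrl. The 8 summed to 88.0 to 95.2 CPM in shPRAME and 112.5 to 116.2 CPM in shCtrl. The 6 keratinocyte markers summed to 69.5 to 72.7 CPM in shPRAME and 96.2 to 101.8 CPM in shCtrl, and the 5 endothelial markers to 0.544 to 0.811 CPM in shPRAME and 0.259 to 0.917 CPM in shCtrl. The part of these shifts in the results was not tested.

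Interferon-stimulated genes were mostly lower in the knockdown cells than in shCtrl cells. The largest falls relative to shCtrl were in XAF1, OAS2, IFIT2, SAMD9L, IFIT3 and IFIT1. Of the 44 genes 30 passed and were lower in shPRAME, where 36.8% of all tested genes did so, and 4 passed and were higher, against 37.7% of all tested genes. A gene passed at a Benjamini-Hochberg adjusted p under 0.05 in edgeR's quasi-likelihood test over 15954 genes, and in either direction 74.4% of them did. Another 3 did not pass (GBP2, TRIM25 and CMPK2) and 7 were too low to be tested. The fall was at least 2-fold for 22 genes, against 8.43% of all tested genes, and 2 genes were at least 2-fold higher, against 10.1%. The groups did not overlap in 30 genes with shPRAME lower, as in 37.8% of all tested genes, nor in 3 with shPRAME higher, as in 38.7%. The median log2 fold change of the 37 tested genes was -1.25, with 0.01 over all tested genes. The filter on low counts keeps a gene that is high in 1 group alone, so counts and medians over tested genes describe the list and do not test it. This list and the other lists below were chosen with earlier results of these data known, so 1 list is no test of another. In bulk RNA, fewer cells of a kind and less RNA per cell cannot be told apart.

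**Figure D1:**
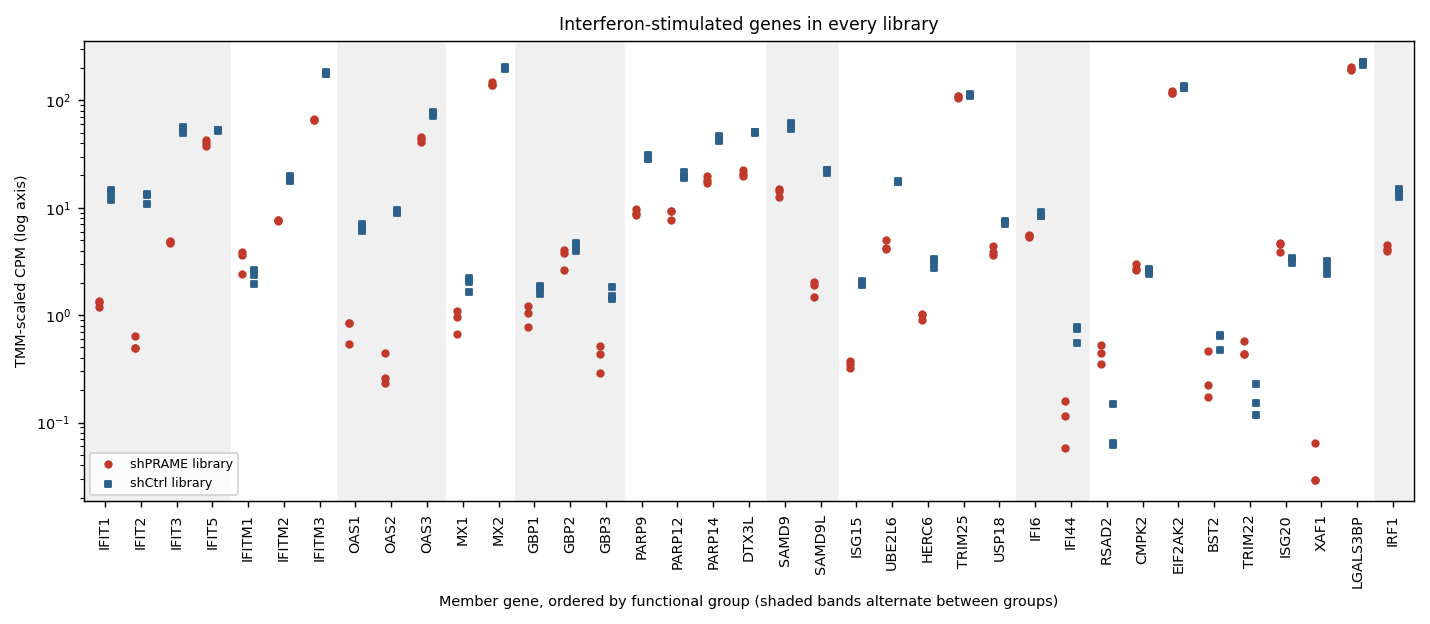
TMM-scaled CPM on a log axis of the 37 tested interferon-stimulated genes in each of 3 shPRAME libraries (red circles) and 3 shCtrl libraries (blue squares), ordered by functional group. Most circles lie below their squares, by more than 10-fold for IFIT1, IFIT2, IFIT3, OAS2, SAMD9L and XAF1, while RSAD2, TRIM22 and ISG20 lie above.

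**Figure D2:**
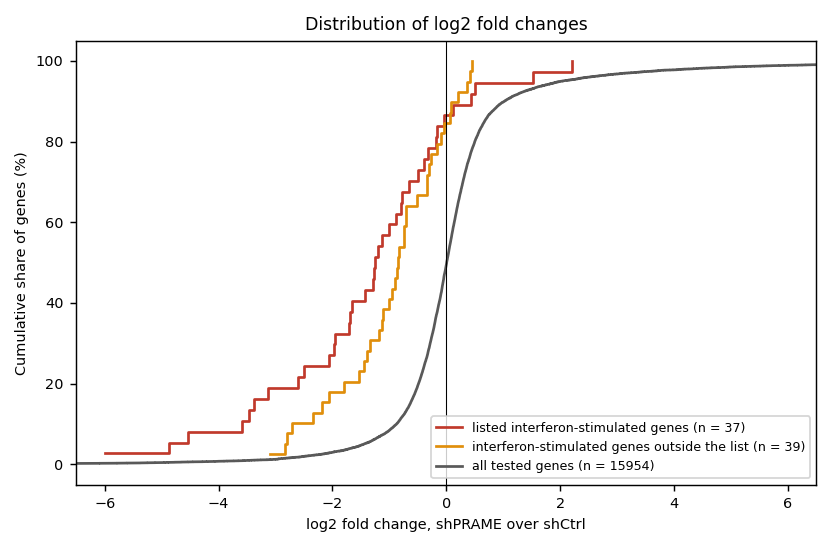
Cumulative share of genes against log2 fold change (shPRAME over shCtrl) for the 37 tested listed genes, for 39 tested interferon-stimulated genes outside the list and for all 15954 tested genes, of which 188 lie beyond the axis. Both interferon curves lie left of the curve of all genes, with medians of -1.25 and -0.85 against 0.01. Both lists were chosen with earlier results of these data known.

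Promoters of the listed genes held the letters of the response element in a larger share than promoters at large. Promoters came from RefSeq (GRCh38.p14, 250 bases before to 50 after the start) and were found for 36 of the 44 genes, all but IFIT2, IFITM2, OAS2, OASL, MX2, GBP2, USP18 and TRIM22. Only 1 start was used per gene. For some genes, ISG20, IFI27 and XAF1 among them, it lay downstream of the first base of the gene's span, and promoters of other starts were not searched. The ISRE core was searched on both strands as GAAA, any 2 bases and another GAAA, with overlapping matches counted separately, and it occurred in 25 of the 36, or 69.4%, against 3.65% of 27305 promoters of all genes. The GAS letters TTCNNNGAA, which read the same on both strands, occurred in 9 of the 36 (25%) and in 7.88% of all promoters. The promoters shown here are those of neighbouring genes that differed in the size or direction of response, and that of ISG20, shown without a partner. They are IFIT3 (chr10:89327747-89328046, plus strand) and IFIT5 (chr10:89414318-89414617, plus strand) of 1 gene cluster, IFITM3 (chr11:320811-321110, minus strand) and IFITM1 (chr11:313790-314089, plus strand) of another, and ISG20 (chr15:88638766-88639065, plus strand). Capitals mark the ISRE core, read 5′ to 3′ on the strand of the gene.
IFIT3: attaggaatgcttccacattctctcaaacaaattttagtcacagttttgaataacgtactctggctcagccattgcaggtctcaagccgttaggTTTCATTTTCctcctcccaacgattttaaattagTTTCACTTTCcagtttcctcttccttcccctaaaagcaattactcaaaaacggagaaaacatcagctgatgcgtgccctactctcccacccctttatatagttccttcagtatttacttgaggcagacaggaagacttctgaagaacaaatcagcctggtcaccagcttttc
IFIT5: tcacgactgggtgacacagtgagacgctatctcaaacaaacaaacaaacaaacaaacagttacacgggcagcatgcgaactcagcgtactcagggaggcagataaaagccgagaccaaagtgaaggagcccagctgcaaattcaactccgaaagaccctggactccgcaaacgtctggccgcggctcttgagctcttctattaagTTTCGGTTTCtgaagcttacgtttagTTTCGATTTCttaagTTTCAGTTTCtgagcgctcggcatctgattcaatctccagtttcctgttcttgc
IFITM3: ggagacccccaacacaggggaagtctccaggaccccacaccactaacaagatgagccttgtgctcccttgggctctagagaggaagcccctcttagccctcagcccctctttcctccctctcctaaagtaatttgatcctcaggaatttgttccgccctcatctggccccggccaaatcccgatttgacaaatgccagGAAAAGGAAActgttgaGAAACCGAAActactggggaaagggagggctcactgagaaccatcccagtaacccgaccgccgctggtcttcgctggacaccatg
IFITM1: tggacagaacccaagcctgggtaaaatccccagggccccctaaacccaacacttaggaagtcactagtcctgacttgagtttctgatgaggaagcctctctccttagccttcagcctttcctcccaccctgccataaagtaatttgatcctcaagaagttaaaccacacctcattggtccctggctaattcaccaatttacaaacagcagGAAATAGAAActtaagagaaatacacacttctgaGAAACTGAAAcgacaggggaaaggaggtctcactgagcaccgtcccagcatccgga
ISG20: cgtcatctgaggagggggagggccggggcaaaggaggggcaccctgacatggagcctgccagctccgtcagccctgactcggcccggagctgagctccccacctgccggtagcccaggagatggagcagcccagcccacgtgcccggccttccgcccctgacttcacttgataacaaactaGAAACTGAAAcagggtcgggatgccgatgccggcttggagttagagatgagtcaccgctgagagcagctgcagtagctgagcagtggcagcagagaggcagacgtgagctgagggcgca

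In IFIT3 the matches began 156 and 122 bases before the start, in IFIT5 45, 19 and 4 bases before it, in IFITM3 52 and 35 bases, in IFITM1 40 and 6 bases and in ISG20 69 bases. Presence of these letters, with exactly 2 bases between the GAAA blocks, did not sort the genes by direction. Whether a response element in a wider sense goes with the direction was not tested. Of 20 tested genes with a core match 18 were lower and 2 higher, namely IFITM1 and ISG20, with a median log2 fold change of -1.16. Of 10 tested genes without one 7 were lower, 1 was higher (RSAD2) and 2 did not pass (CMPK2 and TRIM25), with a median of -1.71. XAF1, OAS1 and SAMD9L were among those with no match in these 300 bases. The pattern takes exactly 2 bases between its GAAA blocks. Promoters of OAS1, XAF1 and RSAD2 hold GAAACGAAA, with 1 base between, and that of TRIM25 holds its reverse, TTTCGTTTC. Genes without a match are therefore not genes shown to lack a response element. Among other tested genes, those with a match were lower in 42.3% of 357 and those without in 37.8% of 11876.

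IFIT1 binds viral RNA that lacks the methyl marks of host messages, and all 4 IFIT genes fell, 3 of them more than 10-fold. IFIT3 had 4.83, 4.96 and 4.66 CPM in shPRAME against 50.2, 53.5 and 56.2 CPM in shCtrl. IFIT1 had 1.34, 1.33 and 1.19 CPM in shPRAME against 11.7, 14.6 and 13.7 CPM in shCtrl. IFIT2 had 0.640, 0.493 and 0.492 CPM in shPRAME against 10.9, 13.5 and 13.3 CPM in shCtrl. The groups were far apart in each of the 3. The log2 fold changes were -3.47 for IFIT3 (SE 0.0622, edgeR adjusted p = 1.04e-17), -3.37 for IFIT1 (SE 0.121, edgeR adjusted p = 9.29e-14) and -4.53 for IFIT2 (SE 0.148, edgeR adjusted p = 2.64e-14). IFIT5, next to them and with 3 core matches in its promoter, had 42.6, 40.5 and 37.8 CPM in shPRAME and 51.5, 53.6 and 53.3 CPM in shCtrl. Its groups were also apart, but the fall was 1.31-fold (log2 fold change -0.39, SE 0.0426, edgeR adjusted p = 2.64e-07). The 4 genes lie within chromosome 10, 89302046 to 89420997 (GRCh38), and each overlaps the RefSeq span of LIPA, a lysosomal lipase gene. LIPA had 42.9 ± 0.890 CPM in shPRAME and 125.5 ± 4.45 CPM in shCtrl (mean ± SD, n = 3 each). How reads in the overlap were divided is not stated.

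The OAS enzymes make short oligoadenylates on double-stranded RNA and so switch on RNase L. OAS2 had 0.448, 0.261 and 0.232 CPM in shPRAME against 9.49, 9.20 and 8.95 CPM in shCtrl, and OAS1 had 0.544, 0.841 and 0.840 CPM in shPRAME against 7.13, 6.05 and 6.64 CPM in shCtrl. Both were below 1 CPM in every library of the knockdown cells, and the fitted falls were 29.4-fold for OAS2 (log2 fold change -4.88, SE 0.168, edgeR adjusted p = 5.21e-14) and 8.81-fold for OAS1 (log2 fold change -3.14, SE 0.158, edgeR adjusted p = 8.78e-12). OAS3, the member that prefers long double-stranded RNA, had 41.4, 43.8 and 45.9 CPM in shPRAME against 75.6, 77.3 and 72.1 CPM in shCtrl. It fell 1.72-fold without overlap (log2 fold change -0.78, SE 0.0399, edgeR adjusted p = 1.11e-11). The 3 genes are neighbours on chromosome 12. OASL, an inactive relative that acts on RIG-I signalling, was too low for the test, with 1, 0 and 2 counts in shPRAME and 3, 8 and 8 counts in shCtrl. With no filter on low counts OASL passed as lower (edgeR adjusted p = 0.00625).

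The IFITM proteins sit in membranes and block the fusion of viruses with the cell, and the family split. IFITM3 had 66.3, 65.9 and 66.5 CPM in shPRAME against 176.1, 185.3 and 176.4 CPM in shCtrl. The groups were well separated, and the fall was 2.71-fold (log2 fold change -1.44, SE 0.0294, edgeR adjusted p = 5.38e-17). IFITM2 fell 2.44-fold, to 7.60 ± 0.0880 CPM in shPRAME against 18.5 ± 1.01 CPM in shCtrl. IFITM1 went the other way, with 3.90, 3.62 and 2.40 CPM in shPRAME and 2.66, 2.35 and 1.94 CPM in shCtrl. Its groups overlapped, and it passed as higher at 1.42-fold (log2 fold change 0.50, SE 0.175, edgeR adjusted p = 0.0158). That call was lost without shPRAME replicate 1 (edgeR adjusted p = 0.0948), without shPRAME replicate 2 (0.0683) and without shCtrl replicate 3 (0.0745), as edgeR adjusted p-values. In GENCODE release 29, 37.7% of the 100-base stretches of the longest IFITM1 transcript also occur in IFITM2 or IFITM3 transcripts, so the count of IFITM1 is uncertain to that extent.

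SAMD9 and SAMD9L, neighbouring genes on chromosome 7 whose products restrict poxviruses and slow cell growth, both fell. SAMD9 had 12.6, 15.0 and 14.4 CPM in shPRAME against 54.3, 59.6 and 61.6 CPM in shCtrl, a fall of 4.16-fold (log2 fold change -2.06, SE 0.0603, edgeR adjusted p = 6.27e-15). SAMD9L had 1.47, 1.91 and 2.06 CPM in shPRAME against 20.9, 22.6 and 22.5 CPM in shCtrl. It fell 12-fold (log2 fold change -3.59, SE 0.0971, edgeR adjusted p = 2.07e-15), and neither gene's groups overlapped.

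The PARP group fell as a narrow band. DTX3L, a ubiquitin ligase that works in a complex with PARP9, had 22.6, 20.5 and 19.9 CPM in shPRAME against 50.1, 50.3 and 50.5 CPM in shCtrl. The groups were well apart, and the fall was 2.40-fold (log2 fold change -1.26, SE 0.0460, edgeR adjusted p = 1.14e-13). PARP9, PARP12 and PARP14, which encode members of the ADP-ribosyltransferase family, fell 3.28-fold, 2.29-fold and 2.38-fold, with no overlap. The 4 log2 fold changes ran from -1.71 to -1.19. PARP9, DTX3L and PARP14 lie together on chromosome 3, and the PARP9 and DTX3L spans overlap at their starts.

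ISG15 is a ubiquitin-like protein that is attached to other proteins by UBE2L6 and the ligases HERC5 and TRIM25 and removed by USP18. ISG15 had 0.320, 0.348 and 0.376 CPM in shPRAME against 1.89, 2.08 and 2.01 CPM in shCtrl. It fell 5.66-fold with the groups apart (log2 fold change -2.50, SE 0.210, edgeR adjusted p = 8.93e-09), from a level that was already low in control cells. UBE2L6 fell 3.92-fold, to 4.47 ± 0.443 CPM in shPRAME against 17.5 ± 0.0741 CPM in shCtrl. HERC6, a relative of HERC5, fell 3.14-fold and USP18 1.85-fold, although 15.4% of the 100-base stretches of USP18 also occur in its copy USP41. HERC5 had 1, 2 and 1 counts in shPRAME and 3, 1 and 0 counts in shCtrl, too few to test. TRIM25, the most abundant of the 6 by CPM, did not pass. It had 110.0, 110.5 and 105.0 CPM in shPRAME and 109.9, 111.7 and 114.0 CPM in shCtrl, in overlapping groups (log2 fold change -0.04, SE 0.0294, edgeR adjusted p = 0.187). Relative to its chromosomal neighbours TRIM25 passed as lower (log2 fold change -0.15, edgeR adjusted p = 0.000299).

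Of the GBP genes, which encode GTPases that coat pathogen membranes, GBP1 and GBP3 fell and GBP2 did not pass. GBP2 had 4.03, 3.83 and 2.63 CPM in shPRAME and 4.41, 4.74 and 3.95 CPM in shCtrl. Its groups overlapped (log2 fold change -0.32, SE 0.146, edgeR adjusted p = 0.0547). It passed as lower without shPRAME replicate 1 (edgeR adjusted p = 0.0292), without shCtrl replicate 3 (edgeR adjusted p = 0.0361), with no filter, in limma-voom, with the replicate block and relative to its chromosomal neighbours. GBP1 had 1.01 ± 0.226 CPM in shPRAME against 1.76 ± 0.150 CPM in shCtrl, and GBP3 had 0.412 ± 0.113 CPM in shPRAME against 1.59 ± 0.217 CPM in shCtrl.

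The IFI family held 2 genes that fell and 2 that were barely detected. IFI6, whose product sits in mitochondria and protects cells from death, had 5.31, 5.54 and 5.50 CPM in shPRAME against 9.11, 8.35 and 8.30 CPM in shCtrl. The groups did not overlap, and the fall was 1.57-fold (log2 fold change -0.66, SE 0.0893, edgeR adjusted p = 3.94e-06). IFI44 fell 6.09-fold at a low level, to 0.111 ± 0.0511 CPM in shPRAME against 0.689 ± 0.122 CPM in shCtrl. IFI27 had 4, 4 and 5 counts in shPRAME and 2, 5 and 1 counts in shCtrl. IFI44L had 0, 1 and 1 counts in shPRAME and none in shCtrl. Both genes are among the strongest responders to interferon in many cells, and neither passed with no filter on low counts.

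IRF1, a transcription factor that interferon gamma induces and that drives part of the programme itself, had 4.51, 4.17 and 4.0 CPM in shPRAME against 12.5, 14.9 and 13.8 CPM in shCtrl. It fell 3.24-fold without overlap (log2 fold change -1.70, SE 0.0918, edgeR adjusted p = 2.31e-11). The chemokine genes CXCL10 and CXCL11, whose products attract T cells, were at the floor: CXCL10 had no count in shPRAME and 1, 0 and 1 counts in shCtrl, and CXCL11 had 1, 0 and 0 counts in shPRAME and none in shCtrl. With 3 counts as the limit that a count of 0 allows, a level of up to 0.0886 to 0.0973 CPM in a shPRAME library and 0.0880 to 0.0952 CPM in a shCtrl library would not be seen, by counting error alone.

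The other effectors moved in both directions. XAF1, a pro-apoptotic antagonist of the inhibitor XIAP, had 2, 1 and 1 counts in shPRAME against 81, 91 and 98 counts in shCtrl. In CPM this was 0.0640, 0.0290 and 0.0289 in shPRAME against 2.40, 2.78 and 3.18 in shCtrl, nearly an absence in the knockdown cells. On the log2 scale the difference was -5.99 (SE 0.321, edgeR adjusted p = 2.04e-11), the lowest of the 37 tested genes. LGALS3BP, a secreted glycoprotein that binds galectins, was the most abundant by CPM and moved little. It had 193.9, 205.9 and 194.2 CPM in shPRAME and 229.5, 227.8 and 215.0 CPM in shCtrl, a fall of 1.13-fold without overlap (log2 fold change -0.18, SE 0.0305, edgeR adjusted p = 4.94e-05). EIF2AK2, the kinase PKR that stops translation on double-stranded RNA, fell 1.11-fold. Neither LGALS3BP nor EIF2AK2 passed against a minimum fold of 1.2. BST2, tetherin, which holds budding virus at the cell surface, fell to 0.287 ± 0.155 CPM in shPRAME against 0.588 ± 0.0994 CPM in shCtrl (edgeR adjusted p = 0.0201). The BST2 call was lost without shPRAME replicate 1 (edgeR adjusted p = 0.0760), shPRAME replicate 2 (0.102), shCtrl replicate 2 (0.0648) and shCtrl replicate 3 (0.0594), and in DESeq2 (0.0634), all as adjusted p-values. EPSTI1 was too low to test, with 0, 1 and 0 counts in shPRAME and 2, 1 and 2 counts in shCtrl.

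The genes against the trend were few and mostly at low levels. RSAD2, which encodes viperin, an enzyme that makes a chain-terminating nucleotide, had 14, 18 and 12 counts in shPRAME against 5, 2 and 2 counts in shCtrl. Every shPRAME library was above every shCtrl library, at 4.60-fold (log2 fold change 2.20, SE 0.478, edgeR adjusted p = 0.000506). CMPK2, a mitochondrial nucleotide kinase gene that lies head to head with RSAD2 on chromosome 2, had 2.62, 2.67 and 2.98 CPM in shPRAME and 2.43, 2.57 and 2.69 CPM in shCtrl. Its groups overlapped and it did not pass (log2 fold change 0.11, SE 0.130, edgeR adjusted p = 0.460). The spans of the 2 genes overlap, and a division of their shared reads cannot be checked here. TRIM22, an antiviral ubiquitin ligase, had 18, 15 and 15 counts in shPRAME against 4, 5 and 7 counts in shCtrl. It was higher in all 3 libraries, at 2.87-fold (log2 fold change 1.52, SE 0.396, edgeR adjusted p = 0.00232). ISG20, an exonuclease that degrades RNA, had 4.73, 4.61 and 3.91 CPM in shPRAME against 3.34, 3.42 and 3.08 CPM in shCtrl. It rose 1.34-fold without overlap (log2 fold change 0.43, SE 0.120, edgeR adjusted p = 0.00414), and with IFITM1 above it completes the 4 genes that passed as higher. Neither ISG20 (edgeR adjusted p = 0.0626) nor IFITM1 (0.0691) passed against a minimum fold of 1.2.

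Abundance among the listed genes changed its order. Per kilobase of the longest coding transcript, the order in shCtrl began with IFITM3 (221.8 CPM per kilobase), LGALS3BP (93.2), MX2 (66.1), IFIT3 (21.3) and IFITM2 (20.8). In shPRAME it began with LGALS3BP (82.3), IFITM3 (82.0), MX2 (46.7), TRIM25 (18.9) and EIF2AK2 (11.8), while IFIT3 stood at 1.93 CPM per kilobase, rank 17 of the 44. Of the 11 tested genes at 20 CPM or more over all libraries 10 were lower, 5 of them at least 2-fold, and the median was -0.78 on the log2 scale. Of the 26 tested genes below that level 20 were lower, 17 of them at least 2-fold, and 4 higher, with a median of -1.47. Of all tested genes, at any level, 36.8% were lower, 8.43% at least 2-fold, and 37.7% were higher. Shares of all genes within each level class were not computed. The summed level of the 44 genes was 838.9, 852.0 and 839.0 CPM in shPRAME against 1376, 1401 and 1391 CPM in shCtrl. The 2 groups of libraries did not overlap in that sum.

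Position on the chromosomes was compared because many genes of these cells shifted together with their neighbours. For each gene the median log2 fold change of the 25 nearest tested genes on either side was taken, leaving out the listed genes and those of the pathway. Over the 37 tested genes these neighbour medians ran from -0.87 to 0.51, with a median of 0.03, and 28 of the 44 genes lay in 11 clusters. With each gene offset by its neighbours, 30 genes were lower and 5 higher, against 35.5% and 35.8% of all tested genes under the same offset, and 28 of the 30 were also lower without the offset. The IFIT cluster (neighbour median 0.06), the OAS cluster (0.08) and the PARP9 cluster (-0.06) lay in regions with little shift. Other regions shifted more, among them those of IRF1 (-0.41), ISG15 (-0.37), the IFITM cluster (-0.26), the GBP cluster (0.35) and HERC6 (0.34).

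**Figure D3:**
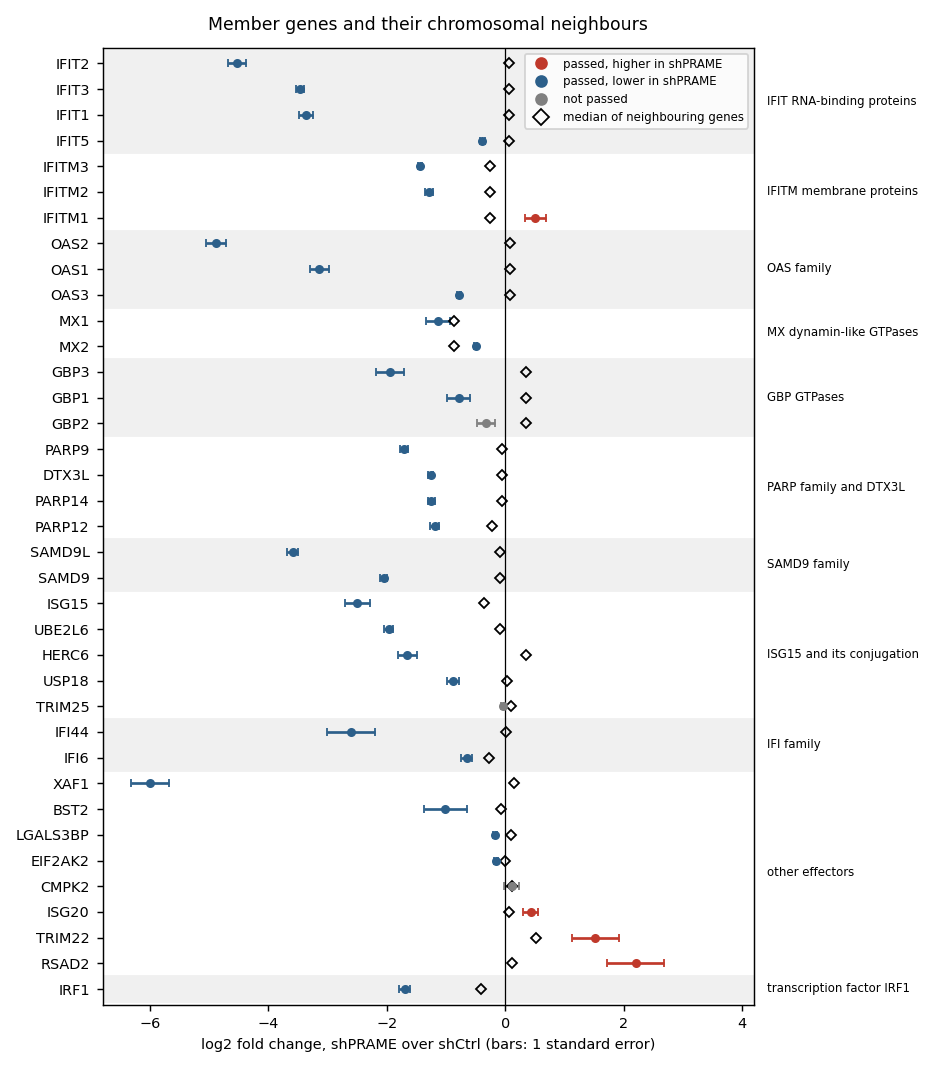
Log2 fold change (shPRAME over shCtrl, bars of 1 standard error) of the 37 tested genes by functional group, with open diamonds for the median log2 fold change of each gene's neighbours. Most genes lie left of their diamonds, but MX1 lies close to its diamond at -0.87 and MX2 lies to the right of it.

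MX1 and MX2, dynamin-like GTPases that trap viral capsids and nucleoproteins, lay in a region that shifted as a whole. MX2 had 139.3, 139.4 and 147.1 CPM in shPRAME against 203.5, 198.0 and 201.4 CPM in shCtrl. Its groups did not overlap, and it fell 1.42-fold (log2 fold change -0.50, SE 0.0275, edgeR adjusted p = 2.82e-11). MX1 fell to 0.903 ± 0.216 CPM in shPRAME against 1.98 ± 0.298 CPM in shCtrl (log2 fold change -1.13, SE 0.203, edgeR adjusted p = 8.32e-05). Their neighbours on chromosome 21 had a median log2 fold change of -0.87, and 80.2% of 192 other tested genes of that chromosome passed as lower, with a median of -0.81. Relative to these neighbours MX1 was not called (edgeR adjusted p = 0.267) and MX2 was higher (log2 fold change 0.37, edgeR adjusted p = 2.07e-09). A change of the MX genes themselves and a change shared by the whole region cannot be told apart from these counts.

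**Figure D4:**
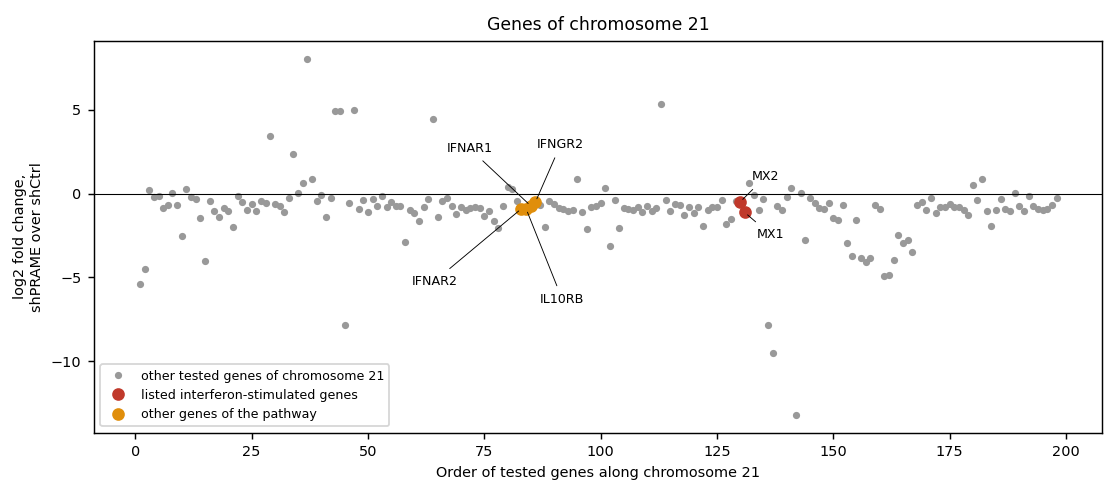
Log2 fold change (shPRAME over shCtrl) of the 198 tested genes of chromosome 21 in their order along the chromosome, with the listed genes in red and 4 interferon receptor genes in orange. MX1, MX2 and the receptor genes lie in the same band as most genes of the chromosome, whose median was -0.81.

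Most interferon receptor genes lie on the same chromosome. Of 6 receptor genes, 5 were tested and all 5 were lower, with log2 fold changes of -0.91 to -0.19, where 36.8% of all tested genes were lower. IFNAR1 had 72.8, 78.1 and 76.4 CPM in shPRAME against 124.0, 128.2 and 127.4 CPM in shCtrl (log2 fold change -0.74, SE 0.0312, edgeR adjusted p = 8.15e-13). IFNGR2, of the interferon gamma receptor, had 85.5, 82.7 and 82.7 CPM in shPRAME against 119.9, 118.4 and 118.4 CPM in shCtrl (log2 fold change -0.51, SE 0.0279, edgeR adjusted p = 2.86e-11). Both were below shCtrl in every library, as were IFNAR2 (log2 fold change -0.90) and IL10RB (log2 fold change -0.91), which complete the cluster of 4 on chromosome 21. Their neighbours had medians of -0.86 to -0.85. Relative to them no receptor gene was lower and 2 were higher, IFNAR1 by 0.13 and IFNGR2 by 0.36 on the log2 scale. Under the same offset 35.5% of all tested genes were lower and 35.8% higher. IFNLR1 had no count in any library.

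Among 20 interferon genes 17 had no count in any library, IFNB1 included, and only IFNE was tested. IFNE, an interferon epsilon gene known from the reproductive tract, had 14, 12 and 13 counts in shPRAME and 6, 7 and 1 counts in shCtrl. It was chosen for mention after its values were seen and passed as higher (log2 fold change 1.42, SE 0.480, edgeR adjusted p = 0.0137).

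Kinases and transcription factors of the pathway were also mostly lower. Of 11, 10 were tested and 9 were lower, JAK2 did not pass, and the median of the 10 was -0.49 on the log2 scale. Of all tested genes 36.8% were lower and 74.4% passed in either direction. STAT2 had 37.3, 38.2 and 36.2 CPM in shPRAME against 57.2, 54.9 and 54.3 CPM in shCtrl (log2 fold change -0.58, SE 0.0373, edgeR adjusted p = 2.66e-10). All 3 libraries of shPRAME lay below shCtrl, and also for IRF9, which fell to 5.95 ± 0.468 CPM in shPRAME against 7.31 ± 0.314 CPM in shCtrl (edgeR adjusted p = 0.00966). JAK1 fell to 87.7 ± 0.560 CPM in shPRAME against 143.7 ± 1.81 CPM in shCtrl. Relative to their neighbours all 10 tested genes of this list were lower, against 35.5% of all tested genes under the same offset. JAK2 is among the 10 only because its neighbours had a median of 0.42. Its own log2 fold change was -0.0033.

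Of 11 inhibitors of the pathway, 10 were tested, 5 were lower and 3 higher, which is near the 36.8% lower and 37.7% higher of all tested genes. PIAS3, named for its binding of STAT3, rose to 45.9 ± 1.60 CPM in shPRAME against 33.8 ± 0.639 CPM in shCtrl, and the phosphatase gene PTPN2 to 33.6 ± 1.77 CPM in shPRAME against 27.1 ± 1.21 CPM in shCtrl, although the neighbours of PTPN2 had a median of 0.38. PIAS2 fell to 41.4 ± 1.06 CPM in shPRAME against 49.7 ± 1.37 CPM in shCtrl and PIAS4 to 14.1 ± 0.766 CPM in shPRAME against 18.1 ± 0.592 CPM in shCtrl.

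Genes that sense nucleic acid and start interferon production were also mostly lower. Of 16 listed, 14 were tested, 11 were lower, 6 of them at least 2-fold, and 3 were higher, against 36.8%, 8.43% and 37.7% of all tested genes. STING1, the adaptor of cytosolic DNA sensing, had 8.13, 8.87 and 9.03 CPM in shPRAME against 42.4, 44.1 and 42.4 CPM in shCtrl. It fell 4.94-fold with no overlap (log2 fold change -2.31, SE 0.0541, edgeR adjusted p = 3.06e-16). IFIH1, the RNA sensor MDA5 and itself induced by interferon, had 1.09, 0.696 and 0.811 CPM in shPRAME against 6.27, 7.37 and 6.87 CPM in shCtrl, a fall of 7.92-fold (edgeR adjusted p = 1.18e-11). The DNA sensor genes AIM2 and IFI16, also inducible, were higher. AIM2 rose to 47.6 ± 2.46 CPM in shPRAME against 29.8 ± 1.28 CPM in shCtrl and IFI16 to 484.2 ± 10.5 CPM in shPRAME against 396.8 ± 9.02 CPM in shCtrl.

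**Figure D5:**
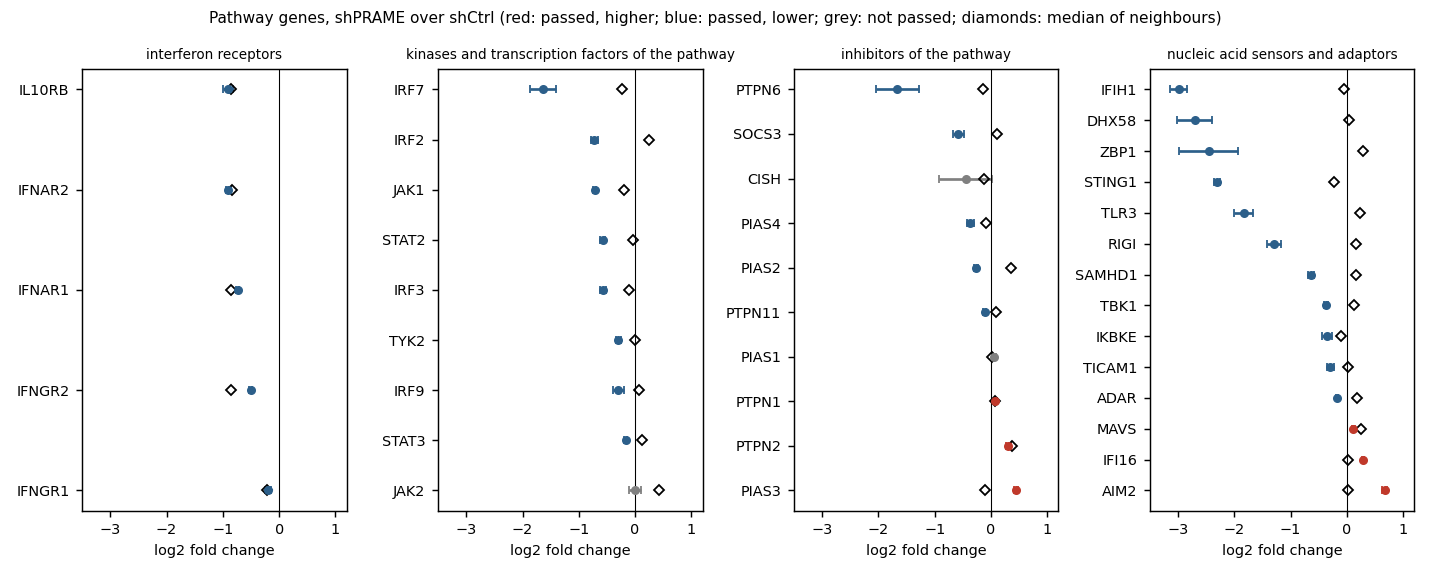
Log2 fold change (shPRAME over shCtrl, bars of 1 standard error) of receptor genes, 9 kinases and transcription factors, inhibitors, and nucleic acid sensors and adaptors, with open diamonds for the median of each gene's neighbours. The receptor genes lie close to or right of their diamonds, whereas STING1, IFIH1 and most other sensors lie to the left of theirs.

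Interferon-stimulated genes outside the list were mostly lower too, but they were also chosen with earlier results of these data known. Their counts therefore describe them and are no independent test of the first list. Of 48 listed, 39 were tested, 32 were lower, 16 of them at least 2-fold, and 4 were higher, and the median of the tested genes was -0.85 on the log2 scale. Of all tested genes 36.8% were lower, 8.43% at least 2-fold, and 37.7% were higher. APOL6, an apolipoprotein L gene, had 3.78, 3.42 and 3.47 CPM in shPRAME against 24.1, 26.0 and 26.1 CPM in shCtrl (log2 fold change -2.84, SE 0.0742, edgeR adjusted p = 1.36e-15). SP100, a protein of nuclear bodies, had 32.2, 32.6 and 30.2 CPM in shPRAME against 77.9, 80.7 and 81.2 CPM in shCtrl (log2 fold change -1.34, SE 0.0374, edgeR adjusted p = 3.24e-15). Both were lower in every shPRAME library. PNPT1, a mitochondrial RNA-degrading enzyme, rose to 127.3 ± 1.95 CPM in shPRAME against 93.0 ± 3.29 CPM in shCtrl, and LAP3, an aminopeptidase, to 61.6 ± 1.53 CPM in shPRAME against 47.7 ± 0.394 CPM in shCtrl. The neighbours of LAP3 had a median of 0.72 on the log2 scale, and relative to them its difference was -0.35. Those of SP100 had a median of -0.41, and relative to them its difference was -0.92.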

How the data were processed

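PolyA RNA of 6 libraries, 3 from shPRAME and 3 from shCtrl cells, was sequenced. The authors deposited a table of raw gene counts for each library, keyed by NCBI identifier, and the values are whole numbers with unequal totals. Tools listed in the submitters' processing notes are Salmon, STAR and fastp, and builds listed there are hg38 and GRCh38. The counting program, annotation and strand setting are not stated, so overlapping genes and near-identical copies are uncertain. Repeated identifiers (34 of 40929 rows) were summed, and 40789 of 40895 genes matched RefSeq of GRCh38.p14, which gave symbols and positions.

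The main test was edgeR's (version 4.0.16, R 4.3.3; filterByExpr, TMM, glmQLFit and glmQLFTest, 2-sided, group as the only term) over 15954 genes, with Benjamini-Hochberg adjustment. Standard errors were derived from the log2 fold change and its F statistic. The fit was checked on simulated counts of known fold changes. Alternatives were RLE and library-total scaling, other filters, DESeq2 1.42.0, limma-voom (limma 3.58.1), glmTreat, a replicate block, removal of the regional shift and omission of each library. The members, lists, groups and alternatives were chosen with earlier results of these data known. Per-library values are given for the most abundant member of each group, the 8 largest changes at 1 CPM or more and every member that was not lower. Of each pathway list, the 2 smallest adjusted p-values in each direction at 1 CPM or more are named, with STAT2, IRF9 and IFNB1, and some genes of the lists are not reported here. Other genes are named to complete their group.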

Additional observations from a re-analysis of the deposited data

How the results depend on the processing

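The number of listed genes lower in shPRAME was 30 and lay between 28 and 32 under every alternative run; leaving out 1 library gave 29 to 30 lower and 3 to 4 higher, and a median log2 fold change of -1.27 to -1.22. The number higher, 4, was 2 with at least 1 CPM required in at least 3 libraries, where fewer listed genes were tested, and 2 against a minimum fold of 1.2. Removal of the regional shift moved the median from -1.25 to -1.13 and turned MX2 to a log2 fold change of 0.37 and CMPK2 to -0.0025. Scaling to the library total alone turned TRIM25 to 0.0063, and relative to its neighbours it passed as lower. The cause of each was not tested beyond the neighbour values given. Of the 37 tested genes 27 kept direction and call under every alternative that tested them; the others were BST2, CMPK2, EIF2AK2, GBP2, IFITM1, ISG20, LGALS3BP, MX1, MX2 and TRIM25. With the replicate block 31 genes were lower, 4 higher and the median was -1.25; GBP2 alone changed its call (edgeR adjusted p = 0.0334). Deviations of same-numbered shPRAME and shCtrl libraries from their group means correlated at -0.0589, -0.119 and -0.0999 across tested genes. The other pairings ran from 0.00917 to 0.0929. With 3 libraries in each group, these values cannot show whether same-numbered libraries shared a preparation. Depth leaves OASL, HERC5, IFI27, IFI44L, EPSTI1, CXCL10 and CXCL11 near the limit of a few counts. Replicates of a group differed by 2.44 to 8.14 times the sampling variance of counts, so none was counted as a re-sequenced copy of another. That measure cannot tell separate cultures or transductions from repeat preparations of 1 culture. The spread between replicates that edgeR estimated, its biological coefficient of variation, was 3.11%.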
